A study of Mus musculus with 13 samples.

Results

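The 10 genes described here encode filament proteins of the fibroblast cytoskeleton: the actins Acta2, Actb and Actg1, the calponin family members Tagln, Cnn1 and Cnn2, the myosin light chain Myl9, the tropomyosins Tpm1 and Tpm2, and the intermediate filament protein Vim. They were chosen by symbol, and all 10 were found among the 22406 gene symbols of the tables and passed a mean of 2 TPM in both tables (TPM, a length-corrected level that sums to the same total in every library). Ribosome footprint profiling, which sequences the stretches of mRNA covered by ribosomes, had been performed on 13 libraries of mouse fibroblasts, with 1 library per condition. WT MEFs (mouse embryonic fibroblasts) and PERK -/- MEFs, which lack the eIF2alpha kinase PERK in every library of that genotype, were each sampled as an untreated control and after 1, 2, 5 and 8 h of thapsigargin (Tg, 1 µM). NIH3T3 cells, an established WT mouse fibroblast line, were sampled untreated and after 2 and 7 h of Tg (200 nM). Tg blocks the SERCA calcium pump of the endoplasmic reticulum (ER) and thereby causes ER stress. All cells were lifted with trypsin, spun down and frozen before lysis, and no cycloheximide was used. With 1 library per condition no difference could be tested, and every interval below covers counting error only. A footprint level reflects both how much of an mRNA there is and how densely it is read, in all cells of the dish together, and these cannot be told apart here. The levels are relative: the paper states that Tg lowers the overall number of translating ribosomes in WT MEFs. It reports a fall in overall translation in NIH3T3 as well, and only a slight one, at 8 h, in PERK -/- MEFs. A level can thus be higher with Tg while absolute synthesis is not, and absolute synthesis was not measured here.

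Actin monomers assemble into filaments, and in fibroblasts these are bundled into stress fibres. Tropomyosins lie along the filament, calponins and transgelin (Tagln) bind it, and the phosphorylated regulatory light chain (Myl9) lets non-muscle myosin pull on it. Actb and Actg1 are made in nearly all cells, whereas Acta2, Tagln, Cnn1 and Myl9 belong to the smooth muscle programme that fibroblasts switch on when they become myofibroblasts. Many of these genes are targets of serum response factor (SRF), which binds the CArG box. Its coactivators MRTF-A and MRTF-B are held in the cytoplasm by free actin monomers and act through SRF. Vimentin forms a separate filament system and is a general marker of mesenchymal cells.

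In GRCm38 (mm10), the build of the files, Actb lies at chr5:142903115-142906754, Actg1 at chr11:120345690-120348542 and Acta2 at chr19:34241090-34255590, all on the minus strand, and the other 7 genes lie on chromosomes 2, 4, 9 and 10. All footprints were counted in coding exons. The coding sequences of the actin genes are so alike that some footprints cannot be assigned to 1 gene. The stretch below is the 90-base window, in steps of 1 codon, with the fewest differences of Actg1 and Acta2 from Actb, at positions 982 to 1071 of the Actb coding sequence, and is shown because it bears on how the 3 actin levels can be read. Capitals mark bases that differ from Actb. The sequences were read from GENCODE M21 transcripts of GRCm38 (mm10), 5′ to 3′ on the minus strand, and each spans 2 coding exons, so that the genomic span includes an intron.
Actb, chr5:142903855-142904069: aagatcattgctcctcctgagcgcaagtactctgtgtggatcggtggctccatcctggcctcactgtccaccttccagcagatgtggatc
Actg1, chr11:120346447-120346639: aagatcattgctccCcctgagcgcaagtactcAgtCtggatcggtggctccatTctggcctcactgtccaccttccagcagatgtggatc
Acta2, chr19:34241724-34243319: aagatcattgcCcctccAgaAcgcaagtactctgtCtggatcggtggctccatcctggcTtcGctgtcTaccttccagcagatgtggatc

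In this stretch Actg1 differed from Actb at 4 bases and Acta2 at 7. Over the whole coding sequence Actb and Actg1 were 88.6% identical, and Actb and Acta2 were 83.3% identical. Of all 34-base windows, the longest footprints kept by the authors, 11.53% of those in Actb, 9.98% of those in Actg1 and 2.22% of those in Acta2 were found unchanged in another gene. At 28 bases the shares were 15.2%, 12.5% and 3.16%. The counting software divides such footprints between genes by estimate, so the levels of Actb and Actg1 carry an uncertainty that the intervals do not show. Tagln, Cnn1, Cnn2, Tpm1 and Tpm2 shared no 34-base window with any other gene, and Myl9 and Vim shared 0.473% and 0.460% of theirs.

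The library totals ranged from 2525029 (WT MEF, Tg 2 h) to 14799515 (PERK -/- MEF, Tg 2 h) footprints assigned to genes. The 10 genes together took between 3.47% and 4.08% of the footprints in WT MEFs, between 2.77% and 3.52% in PERK -/- MEFs and between 1.43% and 2.34% in NIH3T3. Eif2ak3, the gene of PERK, was read at 14.4 to 33.3 CPM (counts scaled to the library total) in WT MEFs and at 7.64 to 19.1 CPM in PERK -/- MEFs; it was lower in PERK -/- cells at each of the 5 conditions but was not at 0, and which part of the gene is deleted is not given in the sources used here. Of 8 fibroblast markers, all were above 2 TPM in at least 1 library of WT and of PERK -/- MEFs, and all but 1 (Col3a1) in NIH3T3. The summed level of 4 mature smooth muscle markers (among them Myh11 and Myocd) was at most 7.76 TPM in any library, that of 4 skeletal muscle markers at most 0.74 TPM, that of 4 endothelial markers at most 5.14 TPM and that of 4 leukocyte markers at most 4.80 TPM. The summed level of 5 epithelial markers reached 9.07 TPM in WT MEFs, 5.78 TPM in PERK -/- MEFs and 20.96 TPM in NIH3T3, where Epcam and Krt5 were at 0.

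In the untreated libraries the actins were among the most heavily translated genes. Actb had the highest TPM of all expressed genes in each of the 3 control libraries, at 13771 in WT MEFs, 12556 in PERK -/- MEFs and 10628 in NIH3T3. Actg1 ranked 7, 8 and 9 in the same order, at 5201, 4253 and 4335 TPM. The smooth muscle actin Acta2 ranked 12 in WT MEFs (3831 TPM), 44 in PERK -/- MEFs (2126 TPM) and 177 in NIH3T3 (1129 TPM). The 3 lines were within 1.30-fold of each other in Actb, whereas Acta2 was 1.80 times as high in WT as in PERK -/- MEFs.

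The other genes of the smooth muscle programme were spread further over the lines. Tagln was at 2533 TPM in WT MEFs, 1828 TPM in PERK -/- MEFs and 184 TPM in NIH3T3, 13.7 times lower in NIH3T3 than in WT MEFs. Cnn1 was the only one of the 10 with its highest untreated level clearly in PERK -/- MEFs, at 43.9 TPM against 20.8 TPM in WT MEFs and 1.56 TPM in NIH3T3. Its low level there rested on 14 footprints. Cnn2, the broadly expressed calponin, was at 635, 483 and 331 TPM, and Myl9 at 222, 157 and 62.6 TPM, in the order WT MEF, PERK -/- MEF and NIH3T3.

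Of the tropomyosins, Tpm1 was at 2591 TPM in WT MEFs and 2461 TPM in PERK -/- MEFs, a ratio of 1.05, and at 1079 TPM in NIH3T3. Tpm2 was at 638 and 646 TPM in the 2 MEF lines, whose order is within counting error, and at 108 TPM in NIH3T3. Vim was at 2977, 2581 and 1549 TPM. The order of the 3 lines was the same for all 10 genes when counts per library total replaced TPM. The NIH3T3 table was made separately from the MEF table, so levels across the tables are given side by side only.

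**Figure D1:**
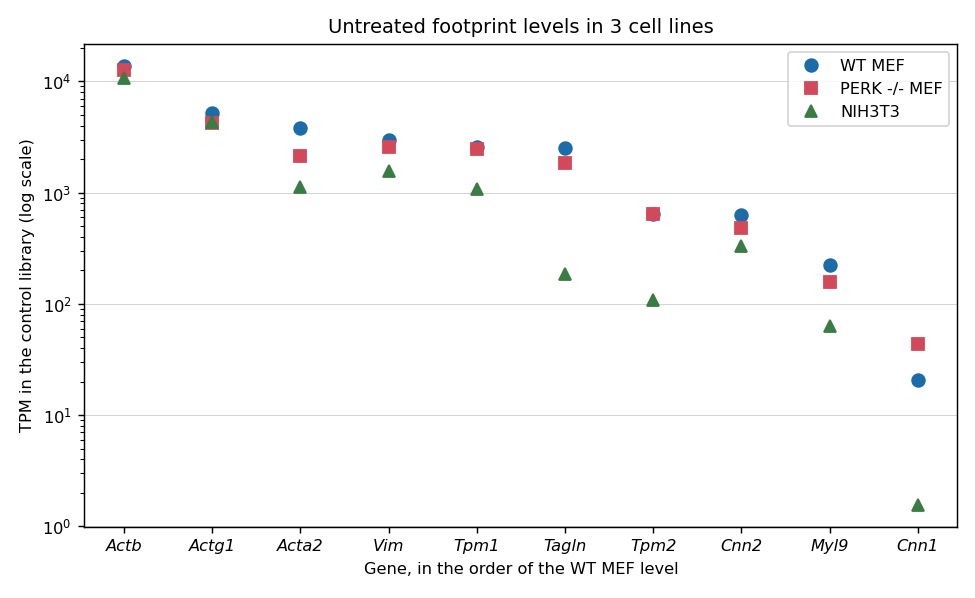
TPM of each of the 10 genes in the 3 untreated libraries (log axis; 1 point per library, no replicates), with genes in the order of the WT MEF level. The lines lie close together for Actb and Actg1 and far apart for Tagln and Cnn1, for which NIH3T3 stands at 184 and 1.56 TPM.

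The untreated PERK -/- MEFs were compared directly with the untreated WT MEFs. Here and below, changes are log2 ratios of TPM with values under 4 raised to 4, a gene was called changed from 2-fold, and the interval is the exact 95% interval of the ratio of counts per library total. Of the 10 genes 1 was changed at least 2-fold, against 8.0% of the 10432 expressed genes. That gene was Cnn1, at 2.12 times the WT level in TPM (log2 1.08) and at log2 1.33 (interval 1.05 to 1.62) in counts. At a lower threshold of 1.5-fold, Cnn1 was the 1 gene that was higher (16.1% of all expressed genes) and Acta2 the 1 gene that was lower (5.32% of all). Acta2 was lower by 0.85 on the log2 scale (counts: −0.86, interval −0.89 to −0.84). Myl9 (−0.50), Tagln (−0.47), Cnn2 (−0.39), Actg1 (−0.29), Vim (−0.21), Actb (−0.13) and Tpm1 (−0.07) were also below the WT level, so that 8 of the 10 were below it. With TMM or DESeq2 size factors, which centre the typical gene, 3 genes were lower at 1.5-fold (Acta2, Tagln and Myl9), with the GC trend removed 2 were (Acta2 and Myl9), and with DESeq2 size factors Acta2 reached 2-fold. The shares of all expressed genes, here and below, are those of the TPM ratios only. The median over the 10 genes was −0.25, beside 0.08 over all expressed genes. With TMM or DESeq2 size factors 9 of the 10 were below the WT level.

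Over the 10 comparisons of a Tg library with its own control there were 100 changes, of which 5 reached 2-fold and 23 reached 1.5-fold. In WT MEFs 1 change reached 1.5-fold upward and 4 downward, in PERK -/- MEFs 7 upward and 0 downward, and in NIH3T3 0 upward and 11 downward. The share of all expressed genes past these folds is given with each time point below. All changes of a line share its 1 control library, so that a high or low control moves them together. Whether the lines differed could not be tested with 1 library per condition.

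**Figure D2:**
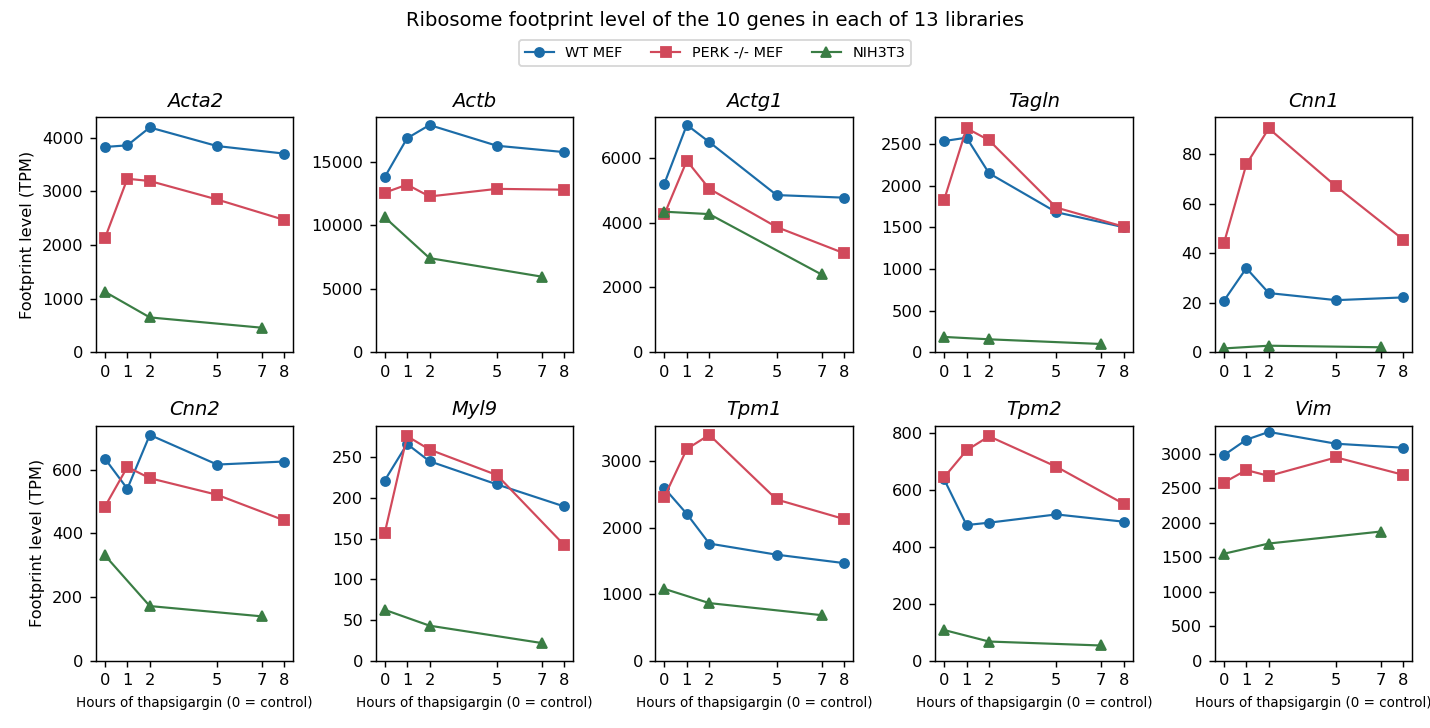
TPM of each gene (1 panel each, axis from 0) against hours of Tg, with 0 for the control and lines joining the libraries of a cell line; each point is 1 library. In PERK -/- MEFs Acta2, Tagln, Myl9 and Tpm1 were highest at 1 or 2 h, in WT MEFs Tagln and Tpm1 ended at 1500 and 1466 TPM, and in NIH3T3 every gene but Cnn1 and Vim was lowest at 7 h.

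In WT MEFs the cytoplasmic actins were somewhat higher early in Tg, and Acta2 stayed near its control level. Actb was at 13771 TPM in the control and at 16839, 17881, 16251 and 15751 TPM after 1, 2, 5 and 8 h. All 4 Tg libraries were above the control, by 0.29, 0.38, 0.24 and 0.19 on the log2 scale. Actg1 was at 5201 TPM in the control and at 7011, 6482, 4848 and 4768 TPM, so that it was above the control early (0.43 and 0.32) and slightly below it late (−0.10 and −0.13). Acta2 was at 3831 TPM in the control and at 3861, 4195, 3848 and 3706 TPM. Its highest and lowest WT libraries differed 1.13-fold, and its direction at 1 and 5 h turned with the scaling (−0.02 and −0.08 with TMM factors).

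The tropomyosins and Tagln went the other way in WT MEFs. Tpm1, the most abundant tropomyosin here, was at 2591 TPM in the control and at 2204, 1759, 1592 and 1466 TPM after 1, 2, 5 and 8 h. It was lower at each later time, by 0.23, 0.56, 0.70 and 0.82 on the log2 scale (interval at 8 h −0.86 to −0.80). Tpm2 was at 638 TPM in the control and between 478 and 515 TPM in the 4 Tg libraries, all below the control. Summed over Tpm1, Tpm2, Tpm3 and Tpm4, tropomyosin footprints per library total were lower by 0.36, 0.57, 0.66 and 0.74. The 6 actin genes summed were higher by 0.30, 0.33, 0.13 and 0.09.

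Tagln was at 2533 TPM in the WT control and at 2574, 2147, 1680 and 1500 TPM after 1, 2, 5 and 8 h. It was level with the control at 1 h (0.02) and lower by 0.76 at 8 h (interval −0.79 to −0.72). Cnn2 was at 635 TPM in the control and at 540, 709, 616 and 625 TPM, below the control at 1 h and above it at 2 h. Myl9 was at 222 TPM in the control and at 267, 245, 217 and 190 TPM. Cnn1 was at 20.8 TPM in the control and at 33.9, 23.9, 21.04 and 22.2 TPM, on 51 to 209 footprints per library. Vim was at 2977 TPM in the control and between 3085 and 3315 TPM with Tg, a 1.11-fold range. With TMM factors, which also centre the typical gene, Vim was slightly below the control at 5 and 8 h (−0.01 and −0.05).

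No gene of the 10 changed 2-fold at any time in WT MEFs, against 6.62%, 9.66%, 9.4% and 10.3% of the expressed genes after 1, 2, 5 and 8 h. At 1.5-fold, Cnn1 rose at 1 h (12.8% of all genes), and Tagln and Tpm1 fell at 5 h (11.6%) and at 8 h (12.0%). With TMM or DESeq2 size factors Tpm1 fell that far at 2 h already (−0.64 and −0.62). Among the 1663 genes with a mean of at least 100 TPM, to which all of the 10 but Cnn1 belong, 17.5% and 20.0% fell that far at 5 and 8 h. The 2 of 10 that fell were thus a share near that of abundant genes in general. The median over the 10 was 0.06, 0.15, −0.04 and −0.09, beside 0, 0, 0.00 and 0.01 over all genes. Over the abundant genes, the log2 ratios between the WT libraries at 8 and 5 h had an SD of 0.11. Between those at 2 and 1 h it was 0.38. In PERK -/- MEFs the same pairs of times gave 0.41 and 0.23. Such pairs differ in both time and library, so none is a repeat.

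Base composition moved with the changes in WT MEFs. The Spearman correlation between the change of a gene and the GC content of its coding sequence was 0.25, 0.36, 0.41 and 0.46 after 1, 2, 5 and 8 h, over 9993 expressed genes that share their 2 libraries. The median GC content of the 10 coding sequences was 54.7%, from 50.6% in Tpm1 to 57.8% in Cnn2, against 52.8% in all expressed genes. With that trend removed, an alternative chosen after seeing the data, Tpm1 was still lower by 0.80 and Tagln by 0.83 at 8 h. The median over the 10 was then 0.01, −0.01, −0.24 and −0.32 after 1, 2, 5 and 8 h. Actb was then at 0.20, 0.20, 0.02 and −0.06, so that its higher late level in WT MEFs did not hold in that setting.

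The PERK -/- MEFs had higher levels of most of these genes early in Tg, and by 8 h 6 of the 10 were below the control in TPM and 9 with TMM or DESeq2 size factors. Acta2 was at 2126 TPM in the control and at 3238, 3196, 2851 and 2468 TPM after 1, 2, 5 and 8 h. All 4 Tg libraries were above the control, by 0.61, 0.59, 0.42 and 0.22 (interval at 1 h 0.62 to 0.67 in counts). Tagln was at 1828 TPM in the control and at 2687, 2543, 1736 and 1507 TPM, above the control at 1 and 2 h and below it at 8 h. Myl9 was at 157 TPM in the control and at 276, 260, 228 and 142 TPM, and its change at 1 h was 0.82 (interval 0.70 to 1.00). Cnn1 was at 43.9 TPM in the control and at 75.8, 90.3, 66.9 and 45.4 TPM.

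The tropomyosins of PERK -/- MEFs were also higher early, unlike those of WT MEFs. Tpm1 was at 2461 TPM in the control and at 3179, 3392, 2421 and 2128 TPM, above the control by 0.37 and 0.46 at 1 and 2 h. Tpm2 was at 646 TPM in the control and at 741, 790, 683 and 552 TPM. Cnn2 was at 483 TPM in the control and at 608, 573, 521 and 440 TPM. Of the cytoplasmic actins, Actb stayed between 12260 and 13191 TPM in all 5 libraries, a 1.08-fold range. Actg1 was at 4253 TPM in the control and at 5906, 5041, 3862 and 3055 TPM, the widest range of the 3 actins in these cells (1.93-fold). Vim was at 2581 TPM in the control and between 2677 and 2946 TPM with Tg.

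At 1 h all 10 genes were above the control in PERK -/- MEFs, with a median of 0.42 beside −0.06 over all expressed genes. At 2 h 9 of 10 were above it, with a median of 0.38 beside −0.11. The exception, Actb, was at −0.03 in TPM and at 0.04 in counts per library total. Of the 10 genes 1, Cnn1, reached 2-fold at 2 h (log2 1.04; counts 0.99, interval 0.79 to 1.19), and 0 did at 1, 5 or 8 h, against 4.1%, 6.4%, 8.03% and 6.01% of all expressed genes changed that far at 1, 2, 5 and 8 h. In counts per library total Cnn1 was just under 2-fold. At 1.5-fold, Acta2, Cnn1 and Myl9 rose at 1 h and again at 2 h, 3 of 10 where 3.78% and 3.57% of all expressed genes rose. Among genes with a mean of at least 100 TPM, 2.41% rose that far at 1 h and 5.05% at 2 h. At 5 h Cnn1 was the 1 gene still up 1.5-fold (10.6% of all), and with DESeq2 size factors none was (Cnn1 at 0.57). At 8 h the median over the 10 was −0.14, beside 0.04 over all genes.

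The changes in PERK -/- MEFs moved with base composition in the other direction at the early times, with Spearman correlations of −0.37 and −0.47 at 1 and 2 h and −0.08 and −0.02 at 5 and 8 h. With the trend removed, the changes of Acta2, Myl9 and Cnn1 at 1 h were 0.68, 0.94 and 0.87. TMM factors raised all values by 0.09 at 1 h and 0.11 at 2 h relative to the library total. With them 5 of the 10 genes rose 1.5-fold at each of these times, with Actg1 and Tagln added at 1 h and Tagln and Tpm1 at 2 h. Because all genes are raised alike, the share of all expressed genes past that fold moves as well. It was not computed with these factors. The fibroblast marker list was low at the same time: all 8 of its expressed genes were below the control at 1 h and at 2 h, with Col1a1, a chain of type I collagen, at 2207 TPM in the control and at 975 and 672 TPM. Its part in the result was not tested.

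**Figure D3:**
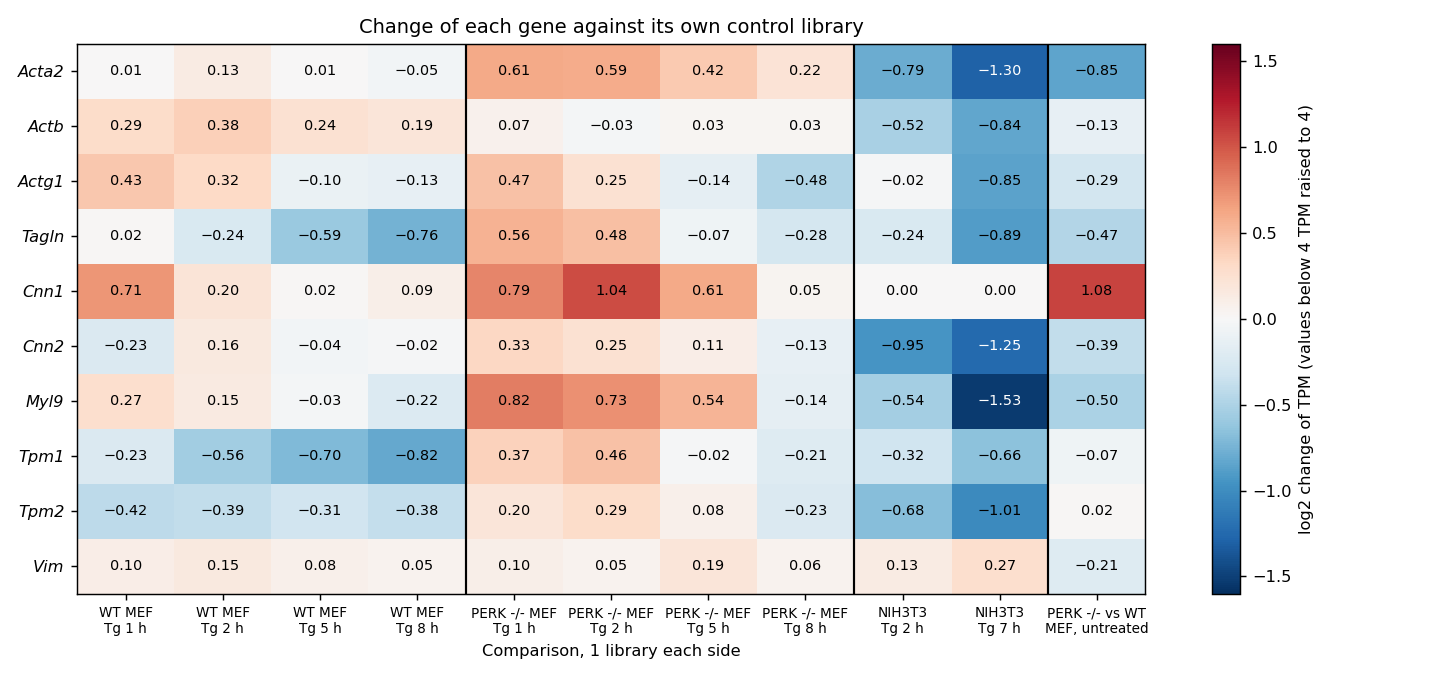
log2 change of TPM for each gene (rows) in each of the 11 comparisons (columns), 1 library on each side, with values under 4 TPM raised to 4; red is higher and blue lower than the control. The early PERK -/- columns are mostly red, with Cnn1 at 1.04 after 2 h, and the NIH3T3 column at 7 h is mostly blue, with Myl9 at −1.53.

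Several genes that rose early in PERK -/- MEFs, among them Acta2, Tagln and Myl9, started from untreated levels below those of WT MEFs. Cnn1 started from 2.12 times the untreated WT level, and Tpm1 and Tpm2 from 0.95 and 1.01 of it. At 1 h Acta2 reached 84.5% of the untreated WT level, from 55.5% in the PERK -/- control. Tagln went from 72.2% to 106% and Myl9 from 70.7% to 125%. Compared at the same time of Tg, the relative level of Acta2 was lower in PERK -/- than in WT MEFs at each of the 4 times. It went from 0.839 of the WT level at 1 h to 0.666 at 8 h. Tagln stood at 1.04, 1.18, 1.03 and 1.00 of the WT level, so that the 2 lines were apart in the untreated state and level at 8 h.

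The tropomyosins showed the reverse. Tpm1 was at 0.9498 of the WT level untreated and at 1.44, 1.93, 1.52 and 1.45 after 1, 2, 5 and 8 h. In counts the difference at 2 h was 1.02 on the log2 scale (interval 0.97 to 1.07). Tpm2 was at 1.01 of the WT level untreated and at 1.55, 1.63, 1.33 and 1.13. Cnn1 was higher in PERK -/- MEFs in all 5 conditions, 3.78 times as high at 2 h. Actb, Actg1, Acta2 and Vim were lower in PERK -/- MEFs in all 5 conditions.

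NIH3T3 cells gave the largest changes, and nearly all were downward. Acta2 was at 1129 TPM in the control and at 651 and 458 TPM after 2 and 7 h, lower by 0.79 and 1.30 on the log2 scale (interval at 7 h −1.35 to −1.24). Actb was at 10628 TPM in the control and at 7410 and 5952 TPM. Actg1 was at 4335 TPM in the control and, unlike Actb, still at 4261 TPM after 2 h, before it was at 2400 TPM at 7 h. At 2 h its direction turned with the scaling, from −0.02 in TPM to 0.08 in counts. The 6 actin genes summed were lower by 0.28 and 0.89.

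The actin-binding proteins were lower as well. Cnn2 was at 331 TPM in the NIH3T3 control and at 172 and 139 TPM after 2 and 7 h. Myl9 was at 62.6 TPM in the control and at 43.1 and 21.7 TPM, the largest fall of the 10 at 7 h (−1.53, interval −1.94 to −1.14), on 63 footprints. Tagln was at 184 TPM in the control and at 156 and 99.6 TPM. Tpm1 was at 1079 TPM in the control and at 865 and 684 TPM, and Tpm2 at 108 TPM and then at 67.4 and 53.5 TPM. Both tropomyosins were thus lower at 7 h than at 2 h.

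Vim was the exception in NIH3T3. It was at 1549 TPM in the control and at 1698 and 1872 TPM after 2 and 7 h, higher by 0.13 and 0.27 (interval at 7 h 0.25 to 0.30). Cnn1 stayed between 1.56 and 2.66 TPM on 6 to 14 footprints, too few to give a direction.

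None of the 10 genes changed 2-fold at 2 h in NIH3T3 (9.52% of the 10117 expressed genes) and 4 did at 7 h (15.1%): Acta2, Cnn2, Myl9 and Tpm2, all downward. Tpm2 (−1.01) was just past 2-fold and not past it with TMM factors (−0.91), DESeq2 size factors (−0.89), a pseudocount or the GC trend removed (−0.94). At 1.5-fold, Acta2, Cnn2 and Tpm2 fell at 2 h (18.2% of all expressed genes; 13.7% of the 1660 with a mean of at least 100 TPM, to which 7 of the 10 belong). In counts per library total Tpm2 did not reach that fold (−0.56). At 7 h 8 of 10 fell that far, all but Cnn1 and Vim (7 with TMM factors, without Tpm1), where 20.1% of all expressed genes and 16.9% of the abundant ones did. The median over the 10 was −0.42 at 2 h and −0.87 at 7 h, beside −0.13 and 0 over all genes. The Spearman correlation with GC content was −0.10 and −0.06. The fibroblast markers were also lower at 7 h, 6 of the 7 expressed in these cells, among them Col1a1 at 743 TPM in the control and at 269 TPM. Whether this and the fall of the 10 genes belong together was not tested.

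The make-up of the actin pool moved with both line and time. Acta2 took 16.8% of the footprints of the 6 actin genes in untreated WT MEFs, 11.2% in PERK -/- MEFs and 7.13% in NIH3T3. In WT MEFs its share was lower with Tg, between 14.0% and 15.5%. It was higher in those of PERK -/- MEFs, at 14.5%, 15.6%, 14.6% and 13.5% after 1, 2, 5 and 8 h. In NIH3T3 it was 5.41% at 2 h and 5.37% at 7 h. The widest exact binomial interval of the Acta2 share was that of the WT library at 2 h, 14.48% to 14.97%.

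Actg1 took its largest share early in each line. In WT MEFs it went from 22.7% untreated to 25.2% at 1 h and was 19.6% at 8 h. In those of PERK -/- it went from 22.4% untreated to 26.4% at 1 h and was 16.6% at 8 h. In NIH3T3 it went from 25.9% untreated to 33.1% at 2 h and was 25.1% at 7 h. Actb took between 58.9% and 69.7% of the actin footprints in all 13 libraries. Because Actb and Actg1 share windows, as the sequences above show, the division between them depends on the estimate of the counting software.

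**Figure D4:**
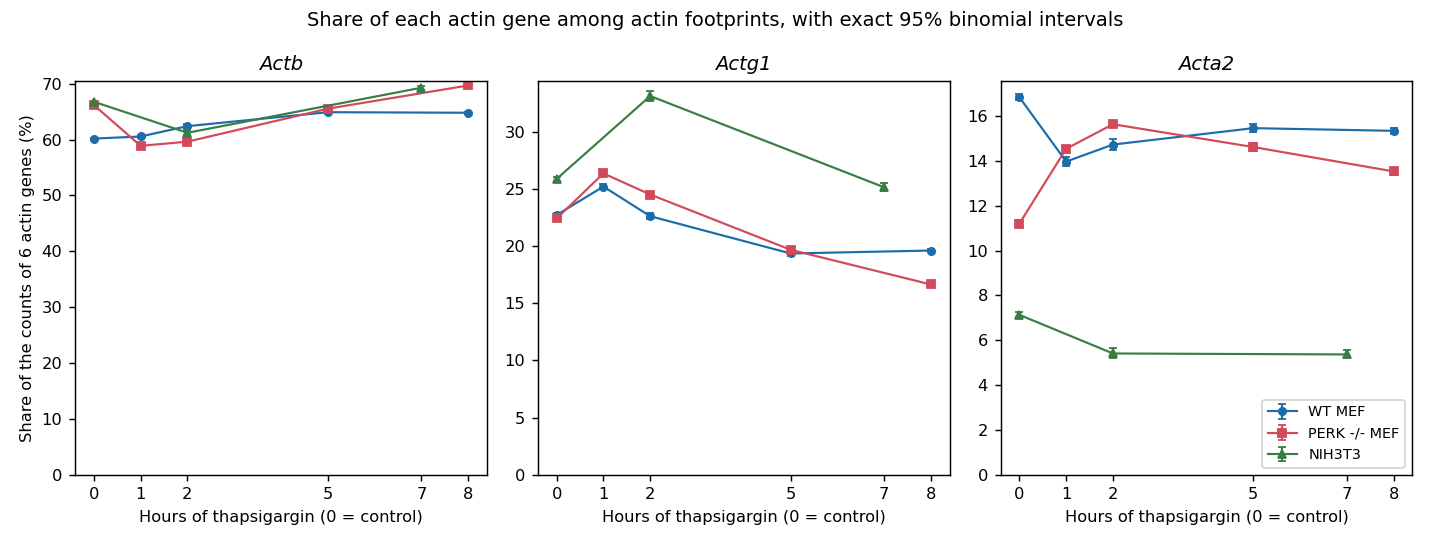
Share of Actb, Actg1 and Acta2 in the counts of 6 actin genes, in percent, against hours of Tg (0 for the control); bars are exact 95% binomial intervals, for counting error only. The Acta2 share was higher with Tg in PERK -/- MEFs (11.2% to at most 15.6%) and lower in WT MEFs and NIH3T3, and the Actg1 share peaked at 1 or 2 h in each line.

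Among the tropomyosins Tpm1 took 46.1% of the footprints of the 4 tropomyosin genes in untreated WT MEFs, 47.3% in PERK -/- MEFs and 53.6% in NIH3T3. Tpm2 took 11.47%, 12.7% and 5.42%. With Tg the Tpm1 share lay between 43.1% and 50.6% in WT MEFs and between 50.5% and 52.7% in PERK -/- MEFs. Tpm3 and Tpm4, the other non-muscle tropomyosins, were lower along with Tpm1 in WT MEFs at 8 h, by 0.87 and 0.64 on the log2 scale of TPM. At 1 h in PERK -/- MEFs they were at 0.08 and 0.20.

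The wider pathway was read in 76 further genes in 7 lists. Of the 27 actin turnover genes (cofilins, profilins, capping proteins, the Arp2/3 complex and its partners), 24 were below the control in WT MEFs at 8 h, with a median of −0.46. Of them 3 were 2-fold down, where 10.3% of all expressed genes changed 2-fold in either direction, and 10 were 1.5-fold down, where 12.0% of all and 20.0% of the abundant genes fell that far. At 1 h in PERK -/- MEFs 17 of the 27 were above the control, with a median of 0.12, and at 8 h 18 were below it, with a median of −0.09. In NIH3T3 at 7 h 23 were below it, with a median of −0.42. The list was thus mostly below the control in WT MEFs and NIH3T3, as were the tropomyosins. Arpc2, a subunit of the Arp2/3 complex that branches actin filaments, was at 402 TPM in untreated WT MEFs and at 237, 182, 208 and 199 TPM after 1, 2, 5 and 8 h. The PERK -/- control had 386 TPM of it, and the Tg libraries of that line 477, 510, 417 and 326 TPM.

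Rdx encodes radixin, which ties actin filaments to the plasma membrane. It was at 219 TPM in untreated WT MEFs and between 86.3 and 93.3 TPM in all 4 Tg libraries, 2-fold lower already at 1 h (−1.34). Its level in PERK -/- MEFs was 168 TPM in the control and between 128 and 219 TPM with Tg. Vasp, which speeds filament growth at the leading edge, fell in NIH3T3 from 74.6 TPM to 36.3 and 32.6 TPM. Vasp in PERK -/- MEFs was at 80.9 TPM in the control and at 38.0 TPM at 5 h, and in WT MEFs it stayed between 60.1 and 71.7 TPM.

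The crosslinkers and focal adhesion proteins went up rather than down in WT MEFs. Of 16 genes 15 were above the control at 1 h (median 0.47) and 13 at 8 h (median 0.38). At 1.5-fold 6 were up at 1 h, where 12.8% of all expressed genes rose that far. At 8 h 3 were up 1.5-fold, and the share of all expressed genes that rose that far was not computed for that time. At 2-fold 2 were up at each of these times, where 6.62% and 10.3% of all expressed genes changed in either direction. Flnc, a filamin and thus a very long crosslinker of actin, was at 37.7 TPM in the WT control and at 95.1, 84.2, 90.5 and 96.1 TPM after 1, 2, 5 and 8 h, 2-fold up at each time. At 1 h in PERK -/- MEFs 14 of the 16 were above the control, with a median of 0.25 and none 2-fold up. At both 2 and 8 h 7 of the 16 were above it there, with medians of −0.04 and −0.03. In NIH3T3 at 7 h 9 of 15 were above it, and Fhl2, a LIM protein of focal adhesions, was at 122 TPM against 55.3 TPM in the control.

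Changes of the listed genes were set beside their length and GC content. Over 75 genes of the 10 and the other lists with a coding sequence, the Spearman correlation between the change at 8 h in WT MEFs and the coding length was 0.44, and that with GC content was 0.68. The same correlations with length and GC content were −0.11 and −0.29 in PERK -/- MEFs at 1 h, −0.43 and −0.55 there at 2 h, and 0.29 and −0.08 in NIH3T3 at 7 h, there over 73 genes. Over all expressed genes the correlations in WT MEFs at 8 h were 0.00 with length and 0.46 with GC content. Plec, the gene of plectin and another very long coding sequence, was at 17.3 TPM in untreated WT MEFs and at 99.5, 61.3, 47.2 and 47.0 TPM with Tg. The part of length and base composition in these list results was not tested.

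**Figure D5:**
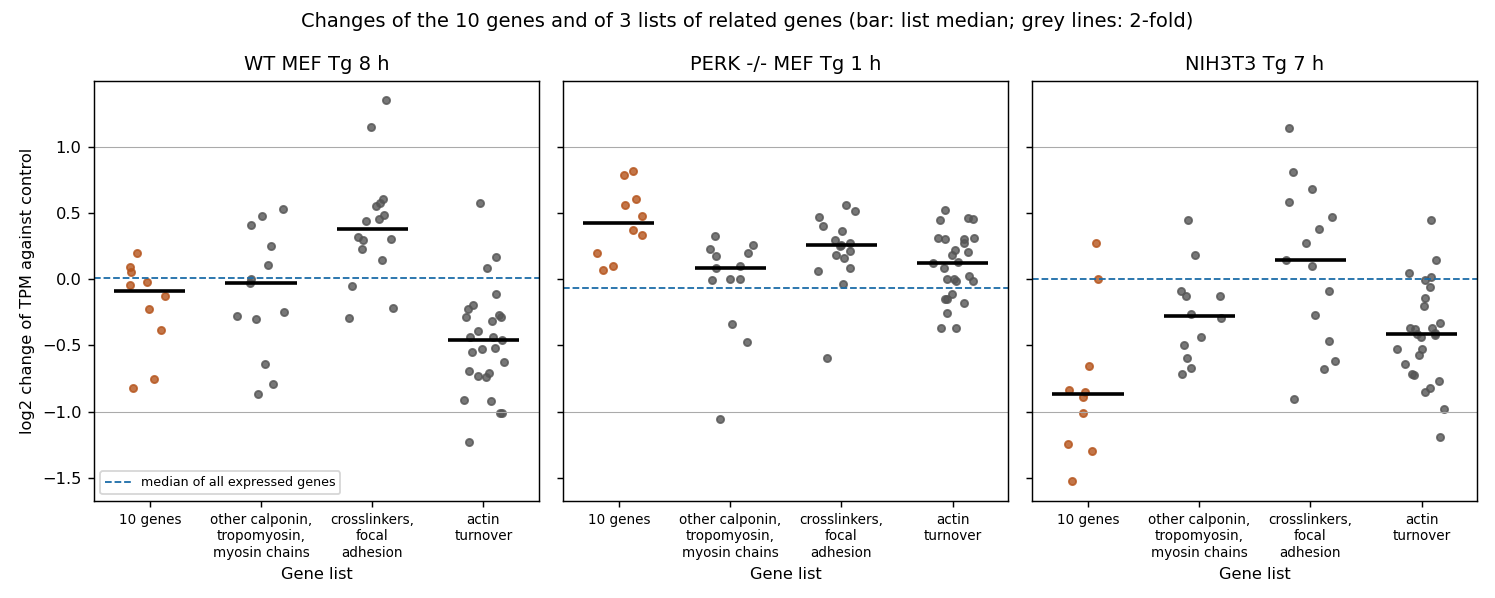
log2 change of TPM against the control for the 10 genes (orange) and 3 lists of related genes (grey; 1 point per gene, black bar for the list median) in WT MEFs at 8 h, PERK -/- MEFs at 1 h and NIH3T3 at 7 h; the dashed line is the median of all expressed genes and grey lines mark 2-fold. The medians of the 10 were −0.09, 0.42 and −0.87, and those of the actin turnover genes −0.46, 0.12 and −0.42.

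The other calponin, tropomyosin and myosin chains went both ways. Of 13 expressed genes none was 2-fold changed in WT MEFs at any time, where 6.62% to 10.3% of all expressed genes were. At 2 h 1 was 1.5-fold up and 3 were 1.5-fold down, and the shares of all expressed genes past that fold were not computed for that time. At 5 and 8 h 3 were 1.5-fold down, where 11.6% and 12.0% of all expressed genes fell that far. Among the abundant genes 17.5% and 20.0% did. The list medians lay between −0.04 and 0.03. Myl6, the essential light chain of non-muscle myosin, was lower by 0.80 at 8 h in WT MEFs, whereas its heavy chains Myh9 and Myh10 were at 0.25 and 0.40. At 1 h in PERK -/- MEFs the list median was 0.08, with 1 gene 2-fold down (Myl6b, on few footprints). In NIH3T3 the list medians were −0.26 and −0.28 at 2 and 7 h. Myl6, Myl6b, Myh9 and Myh10 were named after their values were seen.

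The regulators of the programme were read at low levels. Srf was at 18.6 TPM in untreated WT MEFs and at 21.98, 20.6, 12.96 and 15.5 TPM after 1, 2, 5 and 8 h. The PERK -/- MEFs had 14.2 TPM in the control and then 11.8, 10.03, 2.42 and 11.01 TPM, the low value at 5 h resting on 22 footprints against 147 in the control. In NIH3T3 it was at 19.2 TPM and then at 15.8 and 5.42 TPM, with 35 footprints at 7 h against 295 in the control. Srf was thus lowest in NIH3T3 at 7 h, where most of the 10 genes were lowest too, and in PERK -/- MEFs at 5 h, where they were not. The part of the Srf level in the levels of the 10 genes was not tested. Mrtfa was at 23.6 TPM in the WT control and between 29.8 and 31.2 TPM with Tg, and in PERK -/- MEFs at 28.5 TPM and between 18.6 and 40.5 TPM. Mrtfb stayed between 10.6 and 14.9 TPM in WT MEFs and between 11.9 and 15.7 TPM in PERK -/- MEFs. Myocd did not pass the limit of 2 TPM in either table.

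Ccn1, Ccn2 and Ankrd1 are immediate targets of SRF and of YAP. In PERK -/- MEFs all 3 were above the control at 1 h and below it at 5 and 8 h, with medians of 0.71, 0.09, −0.64 and −1.61 after 1, 2, 5 and 8 h. All 3 were below the control at 5 and 8 h in WT MEFs too, where the medians were 0.41, −0.06, −0.71 and −0.72. Ccn2 was at 1058 TPM in untreated WT MEFs and at 2819, 2397, 1045 and 1008 TPM after 1, 2, 5 and 8 h. The PERK -/- MEFs had 444 TPM in the control and then 995, 539, 213 and 119 TPM, 2-fold up at 1 h and 2-fold down at 5 and 8 h. Ccn1 and Ankrd1 fell 2-fold there at 8 h as well, by 1.37 and 1.61 on the log2 scale, the latter on 67 footprints. In NIH3T3, where Acta2 was lower at both times, Ankrd1 rose from 111 TPM to 283 TPM at 2 h and was at 182 TPM at 7 h.

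CArG boxes were searched by script in the promoters of the 10 genes, from 250 bases before to 50 bases after the start and with no mismatch. The motif reads alike on both strands, so that 1 search covers both. A box was found in 3 of the 8 genes with a promoter in the RefSeq table (GRCm38.p6), namely Actg1, Cnn2 and Myl9. It was found in 9 of 65 other listed genes and in 535 of all 32851 promoters (1.63%). No exact match was found in this window for Acta2, Cnn1, Tpm1, Tpm2 and Vim, where a box with a mismatch would be missed. Actb and Tagln had no promoter entry. The 3 boxes are shown because Cnn2 and Myl9 were 2 of the 4 genes that fell 2-fold in NIH3T3 at 7 h and Myl9 was among the 3 that rose 1.5-fold in PERK -/- MEFs. Capitals mark the box, and 15 bases are given on each side, 5′ to 3′ on the strand of the gene.
Actg1, chr11:120348561-120348600, minus strand: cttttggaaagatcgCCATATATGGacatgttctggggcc
Cnn2, chr10:79988529-79988568, plus strand: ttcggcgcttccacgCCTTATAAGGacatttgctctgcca
Myl9, chr2:156775288-156775327, plus strand: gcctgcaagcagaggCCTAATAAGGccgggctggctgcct

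The first base of the box lay 90 bases before the start of Actg1, 56 before that of Cnn2 and 161 before that of Myl9. Acta2, without an exact match in this window, also fell 2-fold in NIH3T3 at 7 h, as did Tpm2 in TPM. The part of the box in these changes was not tested.

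The genes whose time course over the 10 MEF libraries was most like that of Acta2, Tagln and Vim were sought among 4136 genes with at least 100 footprints in every library. Likeness was the root mean square difference of log2 TPM after each gene was centred on its own mean. Dlst, Pdlim1 and Wdr36 were nearest to Acta2, at 0.09, 0.11 and 0.12, where Acta2 itself varied by 0.30. Of the other 8 members with enough footprints Cnn2 came closest to Acta2 (0.17), and Tpm1 was farthest (0.56). Naa15, Hnrnpa1 and Rps4x were nearest to Tagln, at 0.09, 0.12 and 0.12, where Tagln varied by 0.32. Anxa6, Sf3b3 and Eno1 were nearest to Vim, at 0.04, 0.07 and 0.08, where Vim varied by 0.12. Actb was within 0.09 of Vim.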

How the data were processed

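Ribosome footprints of 13 libraries were analysed from 2 pairs of tables, 1 for MEFs and 1 for NIH3T3. Reads of rRNA and tRNA had been filtered out by the authors with STAR. Footprints between 22 and 34 nt long were mapped by Bowtie2 against mm10 RefSeq coding regions without their first and last 30 nt, with a minimum transcript length of 100 nt, and RSEM estimated gene levels. Versions are not given in the sources used here. The deposited tables hold RSEM expected counts per gene, which are whole numbers, and the deposited TPM values, which are length-corrected and scaled to the same total in each library.

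Changes were computed here as log2 ratios of TPM against the control of the same line, with values under 4 raised to 4, over genes with a mean of at least 2 TPM; a gene was called from 2-fold, as in the study's methods. Intervals were exact 95% intervals of expected counts per library total (conditional binomial for ratios, Clopper-Pearson for shares) and cover counting error only; 3 counts correspond to between 0.203 and 1.19 CPM. With 1 library per condition no test was run. The interval code was tested on simulated data. Alternatives were counts per library total, TMM factors (edgeR 4.0.16), DESeq2 1.42.0 size factors, a floor or a pseudocount of 1 TPM, a 1.5-fold threshold, a mean of 5 TPM or no limit, and, chosen after seeing the data, a lowess fit (fraction 0.3) of the change on GC content, or on coding length, subtracted from it, and a mean of 100 TPM. Python 3.11.15, R 4.3.3, scipy 1.17.1 and statsmodels 0.14.6 were used. Coding sequences came from GENCODE M21, and 95.8% of the expressed genes of the MEF table and 95.2% of those of the NIH3T3 table had one.

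The 10 genes and all gene lists were chosen with earlier results of these data known. Named were the 10 genes, Srf, Mrtfa and Mrtfb, and of each other list at most 3 genes per direction with the largest change of at least 2-fold and at least 100 counts in both libraries; genes named outside this rule are marked, apart from Eif2ak3, Tpm3, Tpm4, Col1a1 and the other markers, which are given as context. One item that met this rule is not reported here. Ccn1, Ccn2, Mrtfa and Mrtfb are listed in the files under the older symbols Cyr61, Ctgf, Mkl1 and Mkl2.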

Additional observations from a re-analysis of the deposited data

Results flagged for a closer look

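For 2 of the 10 genes all Tg libraries of one line lay above the control and all of another line below it, each beyond its counting interval. The share of all expressed genes that meet this rule was not computed, so whether 2 of 10 is unusual cannot be said. The Tg libraries of a line share 1 control library, so that their agreement is not a repeat of the result. Acta2 was higher in the 4 Tg libraries of PERK -/- MEFs, with a median log2 change of 0.51 (0.22 to 0.61), and lower in the 2 of NIH3T3, with a median of −1.05 (−1.30 to −0.79). Actb was higher in the 4 Tg libraries of WT MEFs, with a median of 0.26 (0.19 to 0.38), and lower in the 2 of NIH3T3, with a median of −0.68 (−0.84 to −0.52). The difference between the lines was not tested in either case, since each condition has 1 library, and dose and sampling times differed between MEFs and NIH3T3. With the trend on GC content removed, Actb in WT MEFs at 8 h was at −0.06.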

How the results depend on the processing

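No paired analysis was possible because each condition has 1 library, and for the same reason no library could be left out. At a 1.5-fold in place of a 2-fold threshold the number of changed genes among the 10 was 1, 0, 2 and 2 in WT MEFs after 1, 2, 5 and 8 h, 3, 3, 1 and 0 in PERK -/- MEFs, 3 and 8 in NIH3T3 after 2 and 7 h, and 2 between the untreated MEF lines. At the 2-fold threshold, counts per library total gave 0 genes in PERK -/- MEFs at 2 h (1 in TPM), and DESeq2 size factors gave 2 between the untreated lines (1 in TPM). No other alternative moved a 2-fold count by more than 1.5 times. With the GC trend removed the median over the 10 in WT MEFs went from 0.15 to −0.01 at 2 h, from −0.04 to −0.24 at 5 h and from −0.09 to −0.32 at 8 h, and no other median over the 10 changed its sign under any alternative. Of 110 changes (11 comparisons), the sign differed from the reported one in 15 with TMM factors, 14 with DESeq2 size factors, 16 with the GC trend removed, 9 with the length trend removed, 5 with counts per library total and 2 with a floor or a pseudocount of 1 TPM, and in 0 of those that reached 1.5-fold. Relative to the library total, TMM moved the median of all genes by 0.11 in PERK -/- MEFs at 2 h and in NIH3T3 at 7 h, by −0.10 in WT MEFs at 8 h and by −0.14 between the untreated lines. With no limit on low levels, the share of genes changed 2-fold was between 1.91% and 6.80% over the comparisons, and with a mean of at least 5 TPM between 4.39% and 17.0%, against 4.10% to 15.1% as reported. Depth limits Cnn1 in NIH3T3 (6 to 14 counts) and Srf.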

Other observations

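The nuclear lamina gene Lmnb1 was lower with Tg in all 3 lines: it was at 230 TPM in untreated WT MEFs and at 123 TPM at 8 h, at 219 and 169 TPM in PERK -/- MEFs, and at 71.3 TPM in untreated NIH3T3 and 20.4 TPM at 7 h. Untreated PERK -/- MEFs had less of all 3 SRF and YAP targets than untreated WT MEFs, with Ankrd1 at 29.4 against 147 TPM, Ccn2 at 444 against 1058 TPM and Ccn1 at 813 against 1045 TPM. Type I collagen went the other way, with Col1a1 at 2207 TPM in untreated PERK -/- MEFs and 1400 TPM in untreated WT MEFs.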
